A study of Homo sapiens with 18 samples.

Results

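The 36 genes described here are the enzymes of glycolysis, the glucose and lactate carriers, the kinase PDK1, the oxygen-regulated factor HIF1A with 2 of its hydroxylases, and a set of genes known to be induced by low oxygen. A gene was kept where it reached at least 1 CPM (counts per 1000000 reads of the scaled library) in 3 or more libraries of a line, and 35 of the 36 did so, out of 40184 gene IDs in the deposited table. The exception was EGLN3, a HIF hydroxylase gene, which did not exceed 0.115 CPM in any library. The genes come from RNA-seq of 18 cultures of 3 human cell lines of acute myeloid leukaemia, each treated for 24 h with DMSO (the vehicle) or RMC-4550 at 500 nM, an allosteric inhibitor of the phosphatase SHP2, the product of PTPN11. Molm-14 and MV4-11 are labelled FLT3-ITD (a tandem repeat of part of the receptor kinase FLT3) and SKNO-1 is labelled KIT N822K (a substitution in the receptor gene KIT). All lines were grown in RPMI with serum, and SKNO-1, with either treatment, also received human GM-CSF at 10 ng/mL, so that line, genotype and growth factor cannot be told apart in SKNO-1. Each of the 6 groups held 3 libraries, which the labels call biological replicates. Each genotype class thus rests on 2 lines or 1 line, with no culture other than these.

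Glycolysis splits glucose into pyruvate. Glucose enters through carriers such as GLUT1 (SLC2A1) and GLUT3 (SLC2A3), is trapped by hexokinase, committed by phosphofructokinase, and oxidised and rearranged by the enzymes from GAPDH to pyruvate kinase. Lactate dehydrogenase turns pyruvate into lactate, which leaves through the monocarboxylate carriers MCT1 (SLC16A1) and MCT4 (SLC16A3), while PDK1 restrains the entry of pyruvate into mitochondria. HIF-1 is the transcription factor that raises many of these genes when oxygen is low: its alpha subunit, HIF1A, is destroyed after hydroxylation by the EGLN enzymes when oxygen is plentiful, so that its regulation is largely at the protein level. Leukaemia cells in culture are known to use glucose heavily.

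Libraries held between 17434810 and 19959917 reads. In 14 libraries the mitochondrial genes took 5.07% to 7.02% of reads, and in the other 4 they took more than 10%. These were replicate 2 of Molm-14 with RMC-4550 (15.0%), replicates 1 and 3 of MV4-11 with DMSO (12.7% and 14.6%) and replicate 1 of MV4-11 with RMC-4550 (10.5%). Some values that rest on these libraries are therefore also given from a fit that has the mitochondrial share as a covariate, or from 1 that leaves the 4 libraries out, which leaves 1 MV4-11 DMSO library. Other values, among them most of those of the lists of related genes, are from the fit of groups only. Myeloid identity was checked with 6 markers, PTPRC, CD33, SPI1, MPO, HOXA9 and RUNX1T1. In the fit of groups only, SPI1 was called higher and MPO lower with RMC-4550 in Molm-14, and HOXA9 higher in SKNO-1. MPO was much lower in Molm-14 than in SKNO-1 with DMSO. PTPRC, the leukocyte antigen CD45, lay between 203 and 608 CPM in all libraries, and RUNX1T1, the partner in the gene fusion typical of SKNO-1, lay between 10.9 and 14.4 CPM in SKNO-1 and at no more than 0.0507 CPM in the other lines. Of 6 markers of other cells, 3 were expressed enough to be tested in each line. PECAM1, an endothelial marker also found on myeloid cells, lay between 104 and 219.9 CPM, and the collagen gene COL1A1 between 1.38 and 10.2 CPM. None was called in the fit of groups only, while with the mitochondrial share as a covariate PECAM1 was higher with RMC-4550 in Molm-14 (0.29) and SKNO-1 (0.51) and COL1A1 in MV4-11 (1.24), and their part in the results was not tested. EPCAM and CD3E, of epithelial and T cells, stayed below 0.1 CPM. The MV4-11 DMSO mean was the middle 1 of the 3 lines for 16 of the 35 genes (45.7%), beside 49.6% of the 12792 genes tested in every line. Molm-14 DMSO libraries had 9261 genes at 10 CPM or more, of which 0 fell below 1% of their Molm-14 level in MV4-11 and 69 did so in SKNO-1. SKNO-1 had 9244 such genes, of which 13 did so in MV4-11 and 123 in Molm-14. MV4-11 had 9416, of which 61 did so in Molm-14 and 29 in SKNO-1.

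The 4 libraries with a high mitochondrial share stood apart in these genes. In Molm-14 with RMC-4550, 30 of the 35 genes were lower in the library concerned than in the other 2, with a median log2 difference of -0.46, beside -0.059 over all genes in the fit. In MV4-11 the medians were -0.42 with DMSO (30 of 35 lower) and -0.25 with RMC-4550 (27 of 35 lower), beside -0.044 and -0.016 over all genes. ALDOA, an aldolase, and EGLN1, the main HIF hydroxylase, had the lowest values in each of the 3 groups. ALDOA differed by -2.13 in Molm-14, -1.60 in MV4-11 with DMSO and -1.29 in MV4-11 with RMC-4550. EGLN1 differed by -2.12, -1.63 and -1.06 in the same order. PGAM1, phosphoglycerate mutase, differed by -1.93, -1.43 and -0.89. Not every gene was lower in these libraries. ADM, which encodes the peptide hormone adrenomedullin, was higher by 0.53, 0.49 and 0.45, and the enolase gene ENO2 by 0.24, 0.36 and 0.21. The sign of the difference was thus the same in all 3 groups for these 5 genes. HIF1A itself was 0.96 higher in the Molm-14 library and 0.31 lower in the MV4-11 DMSO libraries.

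**Figure D1:**
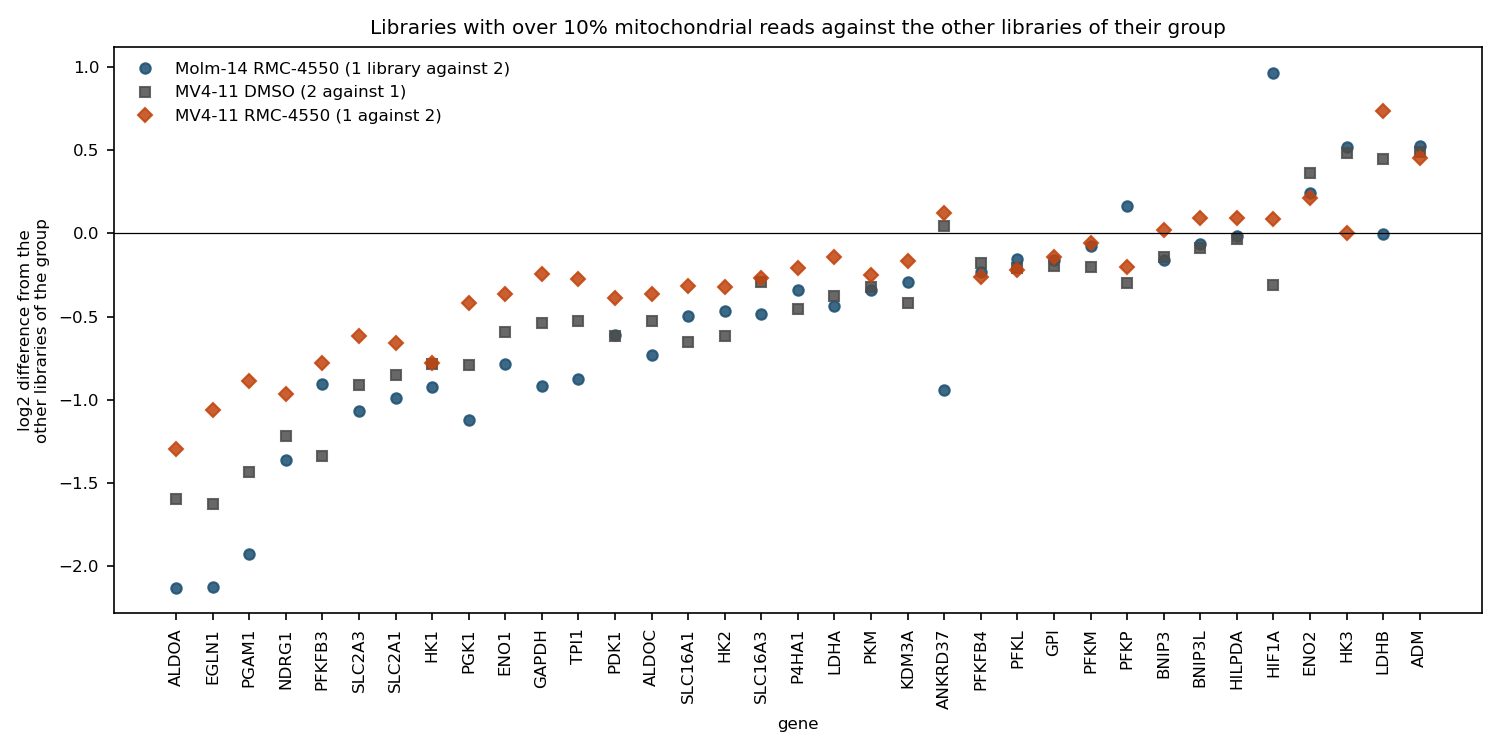
Log2 difference (y axis) between the libraries with over 10% mitochondrial reads and the other libraries of the same group, for each of the 35 genes (x axis, ordered by the mean over groups); circles are Molm-14 with RMC-4550, squares MV4-11 with DMSO and diamonds MV4-11 with RMC-4550. ALDOA and EGLN1 lie lowest, down to -2.13, and ADM lies above 0 in all 3 groups.

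With DMSO, the lines expressed different isozymes. Levels of different genes are compared here as CPM per kb of the longest coding transcript. HK2 was the main hexokinase in each line, at 107, 65.0 and 81.3 CPM per kb (values for the 3 lines stand in the order Molm-14, MV4-11, SKNO-1 wherever no line is named). HK1 was at 0.989 ± 0.085, 9.50 ± 3.2 and 27.2 ± 0.29 CPM per kb (SD, n = 3), and so was lowest in Molm-14 and highest in SKNO-1 with no overlap. Between the phosphofructokinase genes, PFKL and PFKP lay at 62.3 to 115 CPM per kb, while the muscle form PFKM lay at 0.733, 0.933 and 4.82. ENO1, the common enolase, stood at 1265, 878 and 1287 CPM per kb, and ENO2, the enolase first known from neurons, at 95.0, 91.9 and 73.6. LDHA, the muscle-type lactate dehydrogenase subunit, stood at 1030, 601 and 538 CPM per kb, and LDHB, the heart-type subunit, at 7.69, 7.35 and 3.19. The low LDHB level was shared by all 3 lines. LDHB has a limit of its own, since 33.4% of its exon bases belong also to another protein-coding gene on the same strand in GENCODE 29, and reads in such bases can be lost in counting. The same holds for 42.3% of the exon bases of ALDOA, which stood at 58.5, 30.5 and 70.8 CPM per kb, beside 110, 116 and 145 for ALDOC, the brain-type aldolase. Of the glucose carriers, SLC2A3 stood at 252, 122 and 69.3 CPM per kb and SLC2A1 at 42.5, 49.7 and 64.2.

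Line differences with DMSO were tested with limma on the log2 values, with a gene called at an adjusted p under 0.05. Between SKNO-1 and Molm-14, 10 genes were higher in SKNO-1 and 9 lower, beside 65.2% of all 15759 genes called. Between MV4-11 and Molm-14, 4 were higher in MV4-11 and 19 lower, beside 54.1% called. With the covariate these were 8 and 13 (57.5% called), and without the 4 libraries 9 and 15 (51.5%). Between SKNO-1 and MV4-11, 12 were higher in SKNO-1 and 5 lower, beside 41.6% called. These 3 comparisons share control libraries, and MV4-11 enters them with 2 libraries of high mitochondrial share. HK1 was 27.3-fold higher in SKNO-1 than in Molm-14 (log2 difference 4.77 ± 0.26 SE, adjusted p = 1.0e-10) and 9.24-fold higher in MV4-11 than in Molm-14 (3.21 ± 0.26, adjusted p = 3.8e-08). ADM ran the other way, with 188, 190 and 193 CPM in Molm-14, 123, 92.0 and 135 CPM in MV4-11 and 21.1, 21.9 and 25.2 CPM in SKNO-1. It was 8.39-fold lower in SKNO-1 than in Molm-14 (-3.07 ± 0.16, adjusted p = 7.3e-11). SLC2A3 had the same order, Molm-14 above MV4-11 above SKNO-1, and was 3.64-fold lower in SKNO-1 than in Molm-14 (-1.86 ± 0.27, adjusted p = 1.2e-05). HIF1A was highest in SKNO-1, 1.58-fold above Molm-14 (0.66 ± 0.19, adjusted p = 0.0063), and the levels in Molm-14 (46.0, 46.2 and 42.0 CPM) and MV4-11 (37.0, 48.7 and 41.7 CPM) overlapped. Of the 19 genes called lower in MV4-11 than in Molm-14, 7 were not called with the covariate (PFKP, PFKFB4, PGAM1, ENO1, PKM, ANKRD37 and NDRG1). PGAM1 was at -1.15 in this fit but at -0.12 (adjusted p = 0.35) with the covariate and -0.19 (adjusted p = 0.025) without the 4 libraries. NDRG1, a hypoxia-induced gene, was at -0.99 in this fit, at -0.17 (adjusted p = 0.16) with the covariate and at -0.18 (adjusted p = 0.051) without them. Both of these calls were also lost without any 1 library of the pair of groups other than MV4-11 replicate 2, at -1.18 to -0.91 and -1.03 to -0.78.

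**Figure D2:**
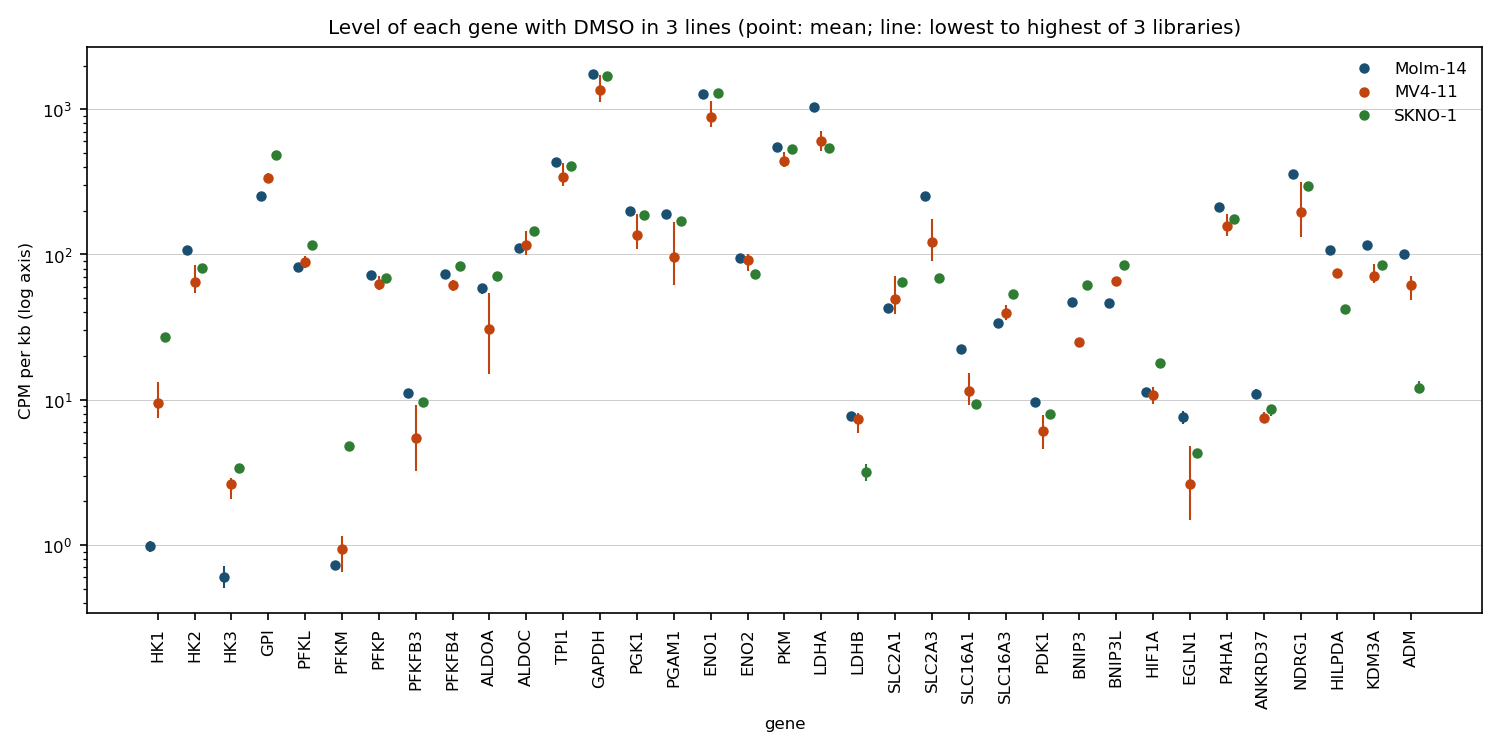
Level of each of the 35 genes with DMSO, in CPM per kb of the longest coding transcript on a log axis (y), by gene (x, ordered by role); points are means and vertical lines run from the lowest to the highest of 3 libraries, coloured by line. HK1 and PFKM are lowest in Molm-14 and highest in SKNO-1, and ADM and SLC2A3 are lowest in SKNO-1.

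With RMC-4550, the calls among these genes leaned lower in Molm-14 and SKNO-1, as did those of all genes. In Molm-14, 11 of 35 were lower and 3 higher, which is 14 genes called beside 46.7% of all 13971 genes tested (25.2% lower and 21.5% higher). The 11 were HK1, ALDOC, TPI1, PGK1, PGAM1, ENO1, LDHA, SLC16A1, SLC16A3, PDK1 and BNIP3, and the 3 were PFKM, BNIP3L and ADM. In MV4-11, HK3 and ENO2 were lower and GPI and BNIP3L higher, 4 of 35 beside 13.9% of 14739 genes (8.03% lower and 5.85% higher). In SKNO-1, 7 were lower and 0 higher, beside 27.1% of 14670 genes (16.2% lower and 10.8% higher). Over all genes 1588 were higher and 2381 lower in SKNO-1, and with median-ratio scaling 1977 and 1932. The 7 were PFKL, PFKM, ENO2, SLC16A1, PDK1, HILPDA and ADM. The 35 genes had median log2 changes of -0.14, 0.11 and -0.19 in the order Molm-14, MV4-11, SKNO-1, beside -0.058, -0.010 and -0.047 over all genes tested. None of the genes was called the same way in every line (of the 12792 genes tested in every line, 5.80% were lower in each and 3.11% higher), 3 were called lower in 2 lines (ENO2, SLC16A1 and PDK1, beside 14.9% of genes lower in 2 or more), and 16 were called in none, beside 42.5%. The share of these genes called in this fit was 40.0%, 11.4% and 20%, below that of all genes in each line. With the covariate it was 62.9%, 42.9% and 54.3%, beside 57.5%, 34.3% and 49.6% of all genes. Without the 4 libraries it was 65.7% in Molm-14 and 65.7% in SKNO-1, beside 58.7% and 53.3% of all genes. Since the fit shares 1 estimate of spread over all 18 libraries, the SKNO-1 count depends on it: a fit of the SKNO-1 libraries alone called 22 lower and 1 higher (57.6% of all genes), and the MV4-11 libraries alone gave 0 (4.57%). Less RNA per cell and fewer cells with a transcript cannot be told apart in these data.

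The spread within SKNO-1 was small. There, every treated library lay below every DMSO library for 22 of the 35 genes, beside 35.4% of all genes tested, and above for BNIP3L and NDRG1 (26.6% of all genes). In Molm-14, 14 of the 35 lay below in this sense, beside 33.1% of all genes, and 3 above, beside 26.9%. In MV4-11, 2 lay below, beside 13.5%, and 2 above, beside 11.1%.

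**Figure D3:**
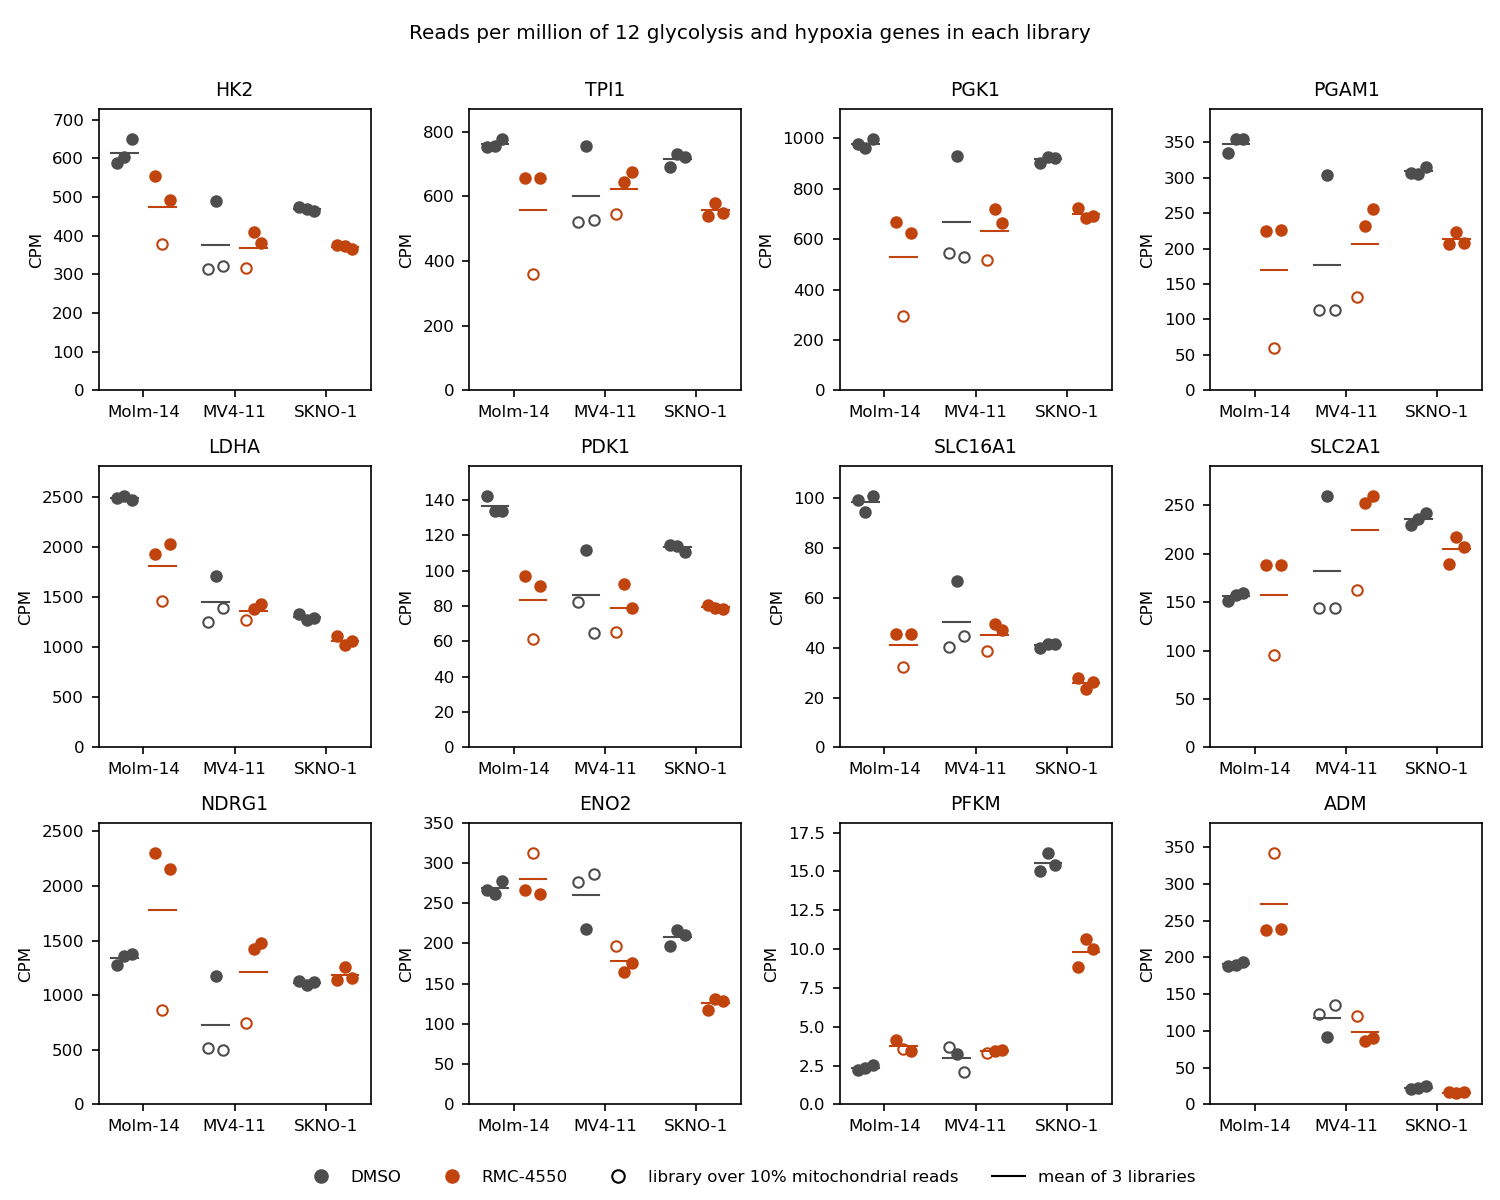
CPM (y axis, from 0) of 12 of the genes in each library, by line (x axis), with DMSO in grey and RMC-4550 in orange; open circles are the 4 libraries with over 10% mitochondrial reads and bars are means of 3 libraries. SLC16A1, PDK1 and LDHA are lower in every treated library of Molm-14 and of SKNO-1, and the open circles lie below the filled ones of their group for PGAM1, PGK1, SLC2A1 and NDRG1 and above them for ADM.

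SLC16A1 was the carrier with the largest change among these genes in Molm-14. SLC16A1 (chr1:112911847-112957013, minus strand, GRCh38) encodes MCT1, which moves lactate and pyruvate across the plasma membrane. It stood at 99.3, 94.6 and 101 CPM with DMSO and at 45.3, 32.2 and 45.4 CPM with RMC-4550 in Molm-14. In SKNO-1 it went from 39.7, 41.6 and 41.6 CPM to 28.0, 23.4 and 26.2 CPM. The groups did not overlap in either line. In MV4-11 they did, with 40.1, 66.5 and 44.6 CPM against 38.7, 49.4 and 47.0 CPM, where the highest DMSO library is the 1 with a low mitochondrial share. The log2 changes were -1.28 ± 0.17, -0.14 ± 0.17 and -0.67 ± 0.17 in the 3 lines (limma, adjusted p = 1.6e-05, 0.66 and 0.0069). SLC16A3, the lactate exporter MCT4, was lower in Molm-14 (-0.35 on the log2 scale, adjusted p = 0.035). Its values there went from 160, 161 and 165 CPM to 151, 102 and 134 CPM. That call was lost without any 1 of the DMSO libraries, and without replicate 2 with RMC-4550 it was at -0.19 (adjusted p = 0.19), a value called when all 4 libraries of high mitochondrial share were left out (adjusted p = 0.022).

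In the fit of groups only, the glucose carriers did not pass the test in any line. SLC2A1 (chr1:42925375-42959176, minus strand), the gene of GLUT1, stood at 151, 157 and 159 CPM with DMSO and at 188, 94.9 and 188 CPM with RMC-4550 in Molm-14, where the low value is the library with 15.0% mitochondrial reads. In MV4-11 it stood at 144, 259 and 144 CPM against 162, 252 and 260 CPM, and each value under 200 there belongs to a library over 10%. In SKNO-1 it was 229, 236 and 242 CPM against 190, 218 and 207 CPM, with no overlap. The log2 changes were -0.06 ± 0.25, 0.33 ± 0.25 and -0.20 ± 0.25 in the 3 lines (limma, adjusted p = 0.87, 0.45 and 0.60). With the covariate the Molm-14 value turned to 0.29 (adjusted p = 0.0023) and the MV4-11 value to -0.03 (adjusted p = 0.83). SLC2A3, the gene of the high-affinity carrier GLUT3, stood in SKNO-1 at 267, 276 and 271 CPM with DMSO against 162, 179 and 166 CPM with RMC-4550, a log2 change of -0.68 ± 0.27 that missed the threshold in the shared fit (adjusted p = 0.069) and was called with the covariate (-0.64, adjusted p = 9.3e-09). In Molm-14 it turned from -0.21 to 0.16 with the covariate (adjusted p = 0.032).

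The upper steps of glycolysis changed gene by gene. HK2 (chr2:74833981-74893359, plus strand), the growth-linked hexokinase, stood at 589, 604 and 651 CPM with DMSO and at 553, 379 and 493 CPM with RMC-4550 in Molm-14. It stood at 315, 489 and 321 CPM against 316, 411 and 380 CPM in MV4-11. In SKNO-1 it stood at 474, 468 and 465 CPM against 376, 374 and 365 CPM. The groups overlapped only in MV4-11, and the log2 changes of -0.39 ± 0.16, -0.002 ± 0.16 and -0.34 ± 0.16 in the 3 lines were not called (limma, adjusted p = 0.053, 1.00 and 0.13). HK1 (chr10:69269984-69401884, plus strand), the housekeeping hexokinase, fell in Molm-14 from 4.06, 3.58 and 4.23 CPM to 2.19, 1.28 and 2.77 CPM, a log2 change of -0.98 ± 0.26 (adjusted p = 0.0056) on 20 to 76 reads per library, which was not called with voom weights (adjusted p = 0.077). It was at 31.3, 52.7 and 29.9 CPM against 28.1, 50.02 and 46.4 CPM in MV4-11, and at 110, 108 and 108 CPM against 86.6, 82.8 and 82.0 CPM in SKNO-1. HK3 (chr5:176880869-176899332, minus strand), the hexokinase of maturing myeloid cells, fell in MV4-11 from 8.88, 6.34 and 8.86 CPM to 5.23, 4.61 and 5.94 CPM, a log2 change of -0.60 ± 0.18 (adjusted p = 0.038). Without the 4 libraries it was at -0.28 and no longer called (adjusted p = 0.39), and the call was lost without any single MV4-11 library other than replicate 2 with DMSO, at -0.69 to -0.51. In Molm-14 it stood at 1.56, 2.19 and 1.78 CPM against 1.80, 2.75 and 2.04 CPM, and in SKNO-1 at 10.1, 10.8 and 10.4 CPM against 7.73, 8.17 and 8.05 CPM.

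GPI (chr19:34359480-34402413, plus strand), which converts glucose 6-phosphate to fructose 6-phosphate, was the largest called rise among these genes in MV4-11. It went there from 1382, 1590 and 1396 CPM to 1663, 1783 and 1895 CPM. Its log2 change was 0.29 ± 0.091 (limma, adjusted p = 0.045), and 0.21 without the 4 libraries (adjusted p = 0.059). Leaving out DMSO replicate 1 or 3, or RMC-4550 replicate 2 or 3, also ended the call (0.24 to 0.29). It stood at 1089, 1067 and 1110 CPM against 1073, 956 and 1067 CPM in Molm-14, and at 1996, 2124 and 2218 CPM against 2024, 2189 and 2071 CPM in SKNO-1. PFKL, the liver form of phosphofructokinase, fell in SKNO-1 alone among the calls, from 328, 339 and 340 CPM to 246, 272 and 259 CPM (log2 change -0.37, adjusted p = 0.0049). PFKM (chr12:48105139-48146404, plus strand) moved in opposite directions in 2 lines. In Molm-14 it rose from 2.22, 2.36 and 2.51 CPM to 4.15, 3.59 and 3.45 CPM, and in SKNO-1 it fell from 15.0, 16.2 and 15.4 CPM to 8.84, 10.6 and 10.0 CPM. In MV4-11 it stood at 3.71, 3.22 and 2.09 CPM against 3.33, 3.44 and 3.50 CPM. Its log2 changes were 0.65 ± 0.17 in Molm-14 and -0.66 ± 0.17 in SKNO-1 (adjusted p = 0.0056 and 0.0086), with groups that did not overlap. The kinases PFKFB3 and PFKFB4, which set the level of the activator of phosphofructokinase, were called in no line in the fit of groups only. With the covariate, PFKFB3 was called higher in Molm-14 (0.445). ALDOC (chr17:28573115-28577264, minus strand) fell in Molm-14 from 213, 216 and 225 CPM to 131, 77.1 and 125 CPM, a log2 change of -1.01 ± 0.18 (adjusted p = 0.00024). It stood at 203, 288 and 197 CPM against 201, 254 and 263 CPM in MV4-11 and at 270, 292 and 301 CPM against 274, 295 and 288 CPM in SKNO-1, where the groups overlapped. ALDOA was called in no line, and ran from 27.8 to 127 CPM among the 3 treated Molm-14 libraries.

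TPI1, of the upper steps, and PGK1, PGAM1 and ENO1, of the lower steps, were lower in Molm-14. PGAM1 (chr10:97426160-97433441, plus strand) converts 3-phosphoglycerate to 2-phosphoglycerate. It went from 334, 355 and 354 CPM to 224, 59.2 and 226 CPM in Molm-14 (log2 change -1.27 ± 0.43, limma, adjusted p = 0.025). It stood at 113, 304 and 113 CPM against 132, 232 and 256 CPM in MV4-11, and at 307, 305 and 314 CPM against 207, 223 and 209 CPM in SKNO-1. The SKNO-1 groups did not overlap, with a log2 change of -0.54 ± 0.43 (adjusted p = 0.40). Every PGAM1 value under 140 CPM comes from a library with over 10% mitochondrial reads, and the Molm-14 change was -0.66 with the covariate and -0.63 without those libraries. The calls of TPI1 (-0.51), PGAM1 and ENO1 (-0.57) in Molm-14 were lost without its replicate 2 with RMC-4550, at -0.22, -0.63 and -0.31, and also without single DMSO libraries (any 1 for TPI1 and PGAM1, replicate 2 or 3 for ENO1). Reads assigned to PGAM1 pseudogenes came to between 0.328% and 9.77% of the reads of PGAM1 and its pseudogenes together in a library. PGK1 (chrX:77910739-78129296, plus strand), which makes the first ATP of the pathway, went from 975, 962 and 998 CPM to 669, 297 and 623 CPM in Molm-14 (-0.97 ± 0.25, adjusted p = 0.0048). It stood at 545, 930 and 529 CPM against 515, 717 and 663 CPM in MV4-11, and at 900, 926 and 923 CPM against 722, 682 and 691 CPM in SKNO-1. GAPDH, often used as a reference gene, was called in no line in the fit of groups only. It stood at 3251, 3313 and 3344 CPM against 3369, 1788 and 3386 CPM in Molm-14. In SKNO-1 it stood at 3122, 3187 and 3275 CPM against 2885, 2862 and 2904 CPM, with no overlap. A fit of the SKNO-1 libraries alone called it lower there (-0.15, limma, adjusted p = 0.021).

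ENO2 (chr12:6913745-6923698, plus strand) was lower in both MV4-11 and SKNO-1 and not in Molm-14. In MV4-11 it went from 276, 218 and 286 CPM to 196, 164 and 176 CPM, and in SKNO-1 from 197, 217 and 210 CPM to 118, 131 and 129 CPM. In Molm-14 it stood at 267, 262 and 278 CPM against 267, 313 and 262 CPM. The log2 changes were 0.06 ± 0.10, -0.53 ± 0.10 and -0.73 ± 0.10 in the 3 lines (limma, adjusted p = 0.67, 0.0026 and 8.4e-05). It is 1 of the few of these genes that were higher in the libraries of high mitochondrial share, and the MV4-11 change was -0.36 without them (adjusted p = 0.0025). PKM, pyruvate kinase, was called in no line in the fit of groups only, and was called higher in Molm-14 with the covariate (0.167).

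At the pyruvate branch, LDHA and PDK1 were lower in Molm-14, and PDK1 in SKNO-1. LDHA (chr11:18394388-18408425, plus strand) went from 2483, 2510 and 2470 CPM to 1929, 1461 and 2028 CPM in Molm-14. It stood at 1250, 1714 and 1395 CPM against 1274, 1384 and 1431 CPM in MV4-11. In SKNO-1 it stood at 1334, 1272 and 1293 CPM against 1107, 1024 and 1064 CPM. The groups did not overlap in Molm-14 or SKNO-1. The log2 changes were -0.48 ± 0.13, -0.08 ± 0.13 and -0.29 ± 0.13 in the 3 lines (limma, adjusted p = 0.0059, 0.74 and 0.11). PDK1 (chr2:172555373-172608669, plus strand) went from 142, 134 and 133 CPM to 96.9, 61.4 and 91.1 CPM in Molm-14. It went from 115, 114 and 111 CPM to 80.7, 78.8 and 78.2 CPM in SKNO-1, and stood at 81.9, 112 and 64.8 CPM against 65.1, 92.4 and 78.8 CPM in MV4-11. As for LDHA, only the MV4-11 groups overlapped. The log2 changes were -0.74 ± 0.18, -0.11 ± 0.18 and -0.51 ± 0.18 in the 3 lines (adjusted p = 0.0033, 0.76 and 0.046). Leaving out any 1 of the 6 SKNO-1 libraries ended the call there, at changes of -0.53 to -0.50, and with median-ratio scaling (-0.45, adjusted p = 0.065). LDHB was called in no line.

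The factor itself, HIF1A (chr14:61695513-61748259, plus strand), was not called in any line in the fit of groups only. It stood at 46.0, 46.2 and 42.0 CPM with DMSO and at 35.9, 73.2 and 39.3 CPM with RMC-4550 in Molm-14. The high value is the library with 15.0% mitochondrial reads, and without the 4 such libraries the Molm-14 change was -0.25 (adjusted p = 0.018) in place of 0.07 ± 0.19 (adjusted p = 0.78). In MV4-11 it stood at 37.0, 48.7 and 41.7 CPM against 43.1, 38.6 and 42.8 CPM. In SKNO-1 it stood at 72.3, 70.9 and 69.2 CPM against 60.8, 52.7 and 48.0 CPM, with no overlap and a log2 change of -0.40 ± 0.19 (limma, adjusted p = 0.14). This SKNO-1 change was called with the covariate (-0.42, adjusted p = 0.019), without the 4 libraries (adjusted p = 0.00033) and in the fit of SKNO-1 alone (adjusted p = 0.00019). These are transcript levels, and HIF-1 activity was not measured. EGLN1 was called in no line and ran from 13.1 to 65.4 CPM among the treated Molm-14 libraries.

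The other hypoxia genes did not move together. ADM (chr11:10304680-10307397, plus strand) rose in Molm-14 from 188, 190 and 193 CPM to 237, 342 and 239 CPM. It fell in SKNO-1 from 21.1, 21.9 and 25.2 CPM to 17.0, 14.9 and 16.2 CPM, and stood at 123, 92.0 and 135 CPM against 121, 86.5 and 89.9 CPM in MV4-11. The Molm-14 log2 change was 0.50 ± 0.16 (limma, adjusted p = 0.019), 0.32 without the 4 libraries (adjusted p = 0.0012). For SKNO-1 the change was -0.50 ± 0.16 (adjusted p = 0.031). The Molm-14 call was lost without replicate 2 with RMC-4550 (0.32) or replicate 1 with DMSO (0.49), and the SKNO-1 call without replicate 2 or 3 of either treatment, at -0.52 to -0.42. With median-ratio scaling the SKNO-1 change was -0.44 and not called (adjusted p = 0.068). BNIP3 and BNIP3L, related mitophagy receptors, went opposite ways in Molm-14. BNIP3 fell there from 145, 143 and 146 CPM to 99.8, 87.9 and 96.5 CPM (-0.61 ± 0.067, adjusted p = 3.2e-06), and BNIP3L rose from 163, 167 and 168 CPM to 208, 194 and 196 CPM (0.26 ± 0.065, adjusted p = 0.0034). BNIP3L also rose in MV4-11, by 0.22 (adjusted p = 0.030), which was no longer called if DMSO replicate 1 or 3, or RMC-4550 replicate 1 or 2, was left out (0.19 to 0.22), and stood above every DMSO library in every treated library of all 3 lines. HILPDA, a lipid droplet protein, fell in SKNO-1 from 54.5, 57.4 and 58.1 CPM to 35.3, 36.2 and 38.2 CPM (-0.63 ± 0.061, adjusted p = 1.4e-06). In Molm-14 it stood at 144, 146 and 143 CPM against 135, 134 and 136 CPM. NDRG1 stood at 1279, 1361 and 1377 CPM against 2306, 868 and 2160 CPM in Molm-14, and at 516, 1180 and 499 CPM against 744, 1422 and 1480 CPM in MV4-11. The values of 868, 516, 499 and 744 CPM are those of the libraries of high mitochondrial share. NDRG1 was called in neither line in the shared fit, and its log2 change with the covariate was 0.77 in Molm-14 (adjusted p = 2.8e-07) and 0.28 in MV4-11 (adjusted p = 0.020). P4HA1 and ANKRD37 were called in no line, and KDM3A in none in the fit of groups only.

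With the mitochondrial share as a covariate, more of these genes passed the test, as did more of all genes in each line. Of the 35, 7 were lower in all 3 lines, beside 15.9% of all genes tested in every line. In Molm-14 12 were lower and 10 higher (57.5% of all genes called), in MV4-11 12 lower and 3 higher (34.3%), and in SKNO-1 18 lower and 1 higher (49.6%). The genes lower in each line were HK2, TPI1, PGK1, PGAM1, LDHA, SLC16A1 and PDK1, beside 15.9% of the 12792 genes tested in all lines. BNIP3L was higher in each line, beside 7.97% of genes. Of the same steps, GAPDH, PKM, LDHB and the aldolase genes were not lower in each line. PGK1 changed by -0.63, -0.40 and -0.35 in the 3 lines (limma, adjusted p = 1.4e-08, 2.6e-05 and 2.9e-05). PDK1 changed by -0.50, -0.36 and -0.48 (adjusted p = 8.4e-07, 0.00020 and 9.2e-07). SLC16A1 changed by -1.08, -0.34 and -0.64 (adjusted p = 3.8e-10, 0.0027 and 6.0e-07). LDHA changed by -0.34, -0.22 and -0.27, TPI1 by -0.26, -0.19 and -0.33, HK2 by -0.19, -0.21 and -0.31, and PGAM1 by -0.66, -0.29 and -0.46. Without the 4 libraries the same 7 genes were lower in each line, beside 15.8% of 12422 genes, and 0 were higher in each, beside 6.41%. In that fit 23, 10 and 23 of the 35 were called in the 3 lines, beside 58.7%, 28.4% and 53.3% of all genes tested. The MV4-11 changes of HK2 (-0.31), PGK1 (-0.43) and LDHA (-0.28) rest on 1 DMSO library, which is assumed to vary like the other groups. Why the share differed between libraries was not tested.

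**Figure D4:**
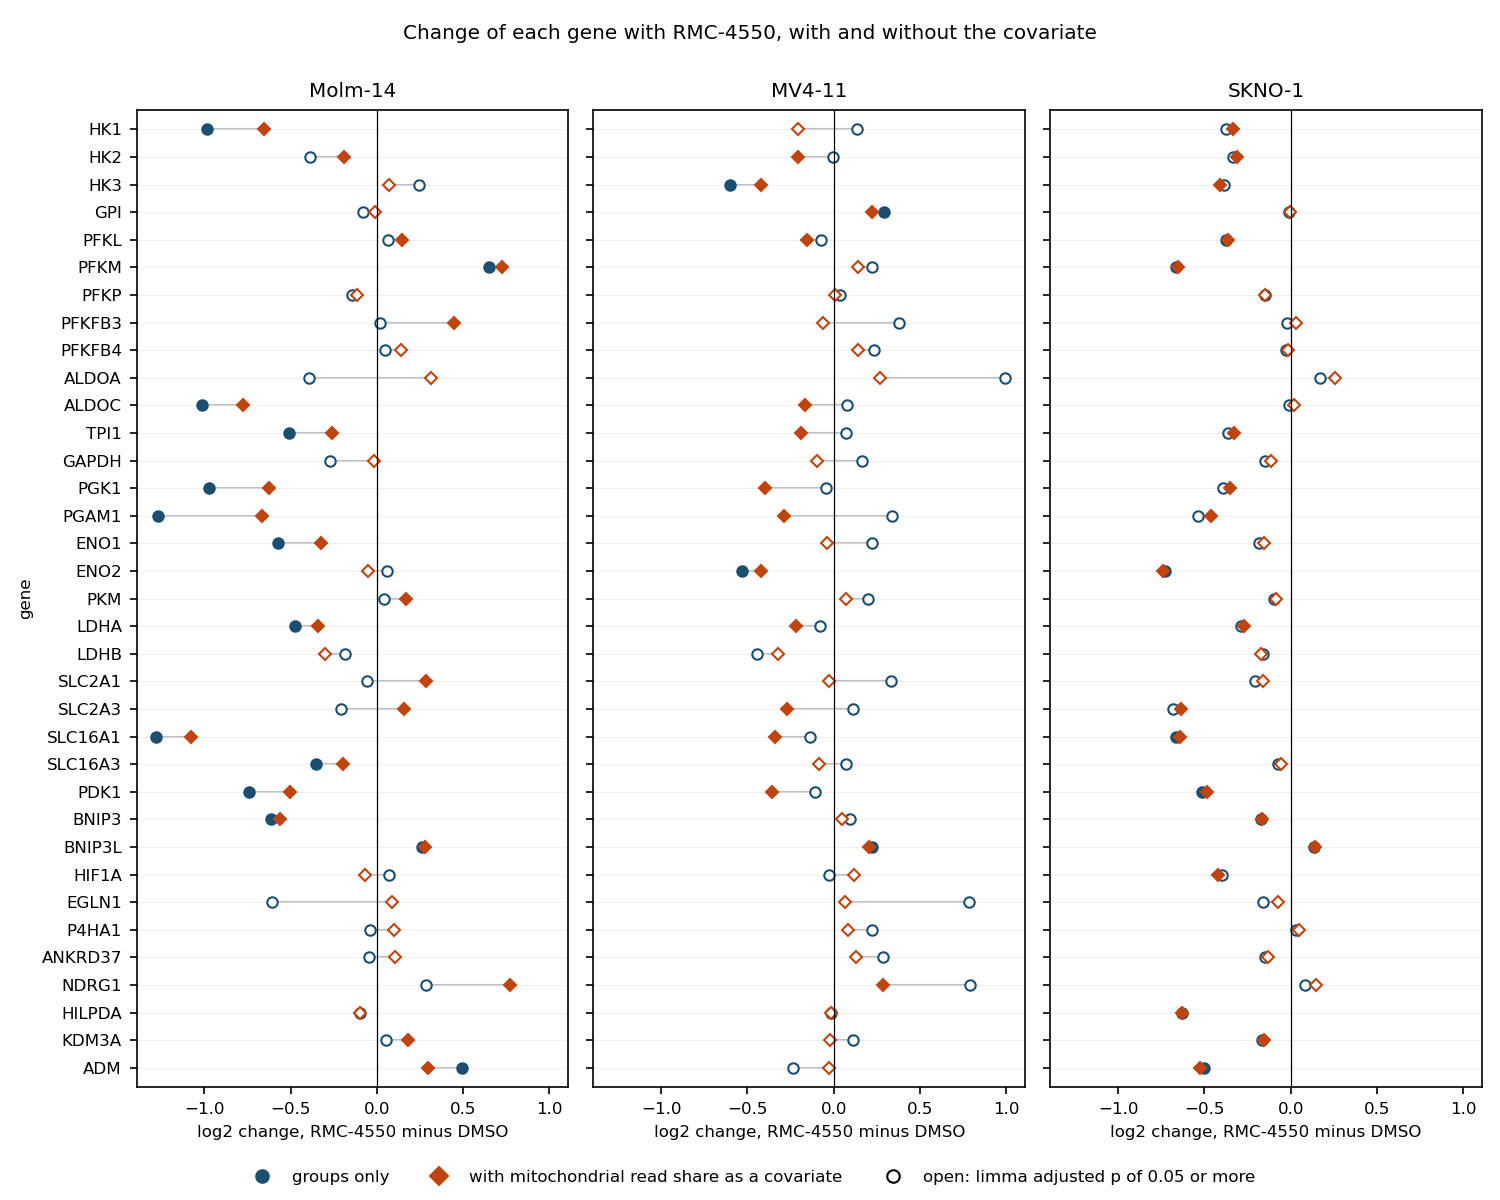
Log2 change with RMC-4550 against DMSO (x axis) of each of the 35 genes (y axis, ordered by role) in each line; circles are from the fit of groups only and diamonds from the fit that includes the mitochondrial share (the covariate), filled where the limma adjusted p is under 0.05. The pairs lie close together in SKNO-1, which has no library over 10%, and far apart for PGAM1, EGLN1, ALDOA and NDRG1 in the other lines.

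The direction also differed between lines under these checks. With the covariate, PFKM, PFKL, SLC2A3, KDM3A and ADM were called in opposite directions in 2 lines (5 of 35, beside 3.87% of all genes). Without the 4 libraries PFKM, SLC2A1, SLC2A3, KDM3A and ADM were (5 of 35, beside 4.04%). PFKM and ADM were so in each of the 3 fits, and were the 2 of 35 in the fit of groups only (beside 1.20%). A test of the difference in response found 3 of the 35 genes between SKNO-1 and the mean of the FLT3-ITD lines (PFKM, HILPDA and ENO2), beside 3.80% of all genes tested, and 7 between Molm-14 and MV4-11 (SLC16A1, HK1, ALDOC, BNIP3, ENO2, ADM and HK3), beside 19.5%.

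The promoters of these genes are shown because HIF-1 binds a short core, ACGTG or GCGTG (the hypoxia response element core), and because the E-box CACGTG bound by MYC and related factors holds the first of these. Both strands were searched in the 250 bases upstream of each RefSeq start (GRCh38.p14). A core was found at 1 or more starts for 25 of the 31 genes with an entry (80.6%), beside 63.7% of 10908 tested genes with an entry and 43.2% of all 35116 starts. ACGTG was found for 18 of 31 (58.1%), beside 28.4% of tested genes, and CACGTG for 8 (25.8%), beside 11.1%. SLC2A3, SLC16A1, BNIP3L, NDRG1 and HILPDA had no entry. Of the genes lower in all 3 lines with the covariate, HK2, TPI1, PGK1, LDHA and PDK1 held a core, and PGAM1 held none in this window. The following 30-base windows are from 5 of those genes, from PFKM and ADM, which were called in opposite directions in 2 lines in each fit, and from ENO2, which was called lower in 2 lines. All 8 were shown because they hold a core. Each is written 5′ to 3′ on the gene's strand, which is the plus strand for all 8, with cores on either strand in capitals (CACGT and CACGC are cores read from the other strand).
HK2, chr2:74834063-74834092: agccaatggGCGTGcgCACGTcactgatcc
TPI1, chr12:6868075-6868104: ccgtgcgccgccgCACGTagccccagactc
PGK1, chrX:78104043-78104072: cggACGTGacaaacggaagccgCACGTctc
LDHA, chr11:18394470-18394499: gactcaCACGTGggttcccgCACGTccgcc
PDK1, chr2:172556060-172556089: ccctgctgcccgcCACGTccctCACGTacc
ENO2, chr12:6914449-6914478: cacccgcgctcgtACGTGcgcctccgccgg
PFKM, chr12:48105346-48105375: tagatccagagatCACGTtagggtacacca
ADM, chr11:10304959-10304988: agagcaggagcgcGCGTGgctgaggaaaga
The windows begin 64 bases upstream of the start for HK2, 30 for TPI1 and PDK1, 205 for PGK1, 93 for LDHA, 131 for ENO2, 135 for PFKM and 114 for ADM. These are distances to a RefSeq start, and all 8 windows lie within the GENCODE 29 span of their own gene, downstream of its first annotated base. The PGK1 window overlaps no GENCODE 29 exon. The other 7 overlap an annotated exon, whose gene and strand were not checked. Binding at these sites was not measured.

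The rest of the pathway was followed with lists of related genes. From each list, up to 3 genes were picked to be named because they were called the same way in all 3 lines. Of all genes tested in every line, 5.80% were called lower in each and 3.11% higher. Of the pyruvate dehydrogenase complex and its control, 7, 3 and 3 of 10 tested genes were lower in the 3 lines (beside 25.2%, 8.03% and 16.2% of all genes) and 0 higher, and the list's median log2 change was -0.46, -0.12 and -0.36, beside -0.058, -0.010 and -0.047 over all genes. With the covariate PDK2 was called higher in each line, and PDPR in Molm-14. PDHA1, the catalytic subunit, went from a mean of 101 ± 1.4 to 72.6 ± 4.5 CPM in Molm-14. The means went from 89.7 ± 5.9 to 70.4 ± 8.7 CPM in MV4-11 and from 76.2 ± 1.6 to 58.8 ± 3.6 CPM in SKNO-1 (SD, n = 3). It was lower in all 3 lines, by log2 changes of -0.47, -0.36 and -0.37 (limma, adjusted p = 0.00042, 0.012 and 0.0045). PDP2, a phosphatase that activates the complex, was lower by -0.60, -0.46 and -0.51. Of the citrate cycle, 7, 2 and 5 of 16 genes were lower, beside the same shares of all genes, and 0 were higher. Fumarase (FH) changed by -0.995, -0.40 and -0.70 and the succinyl-CoA ligase subunit SUCLG1 by -0.59, -0.35 and -0.49, each called in every line. MPC1, a subunit of the carrier that brings pyruvate into mitochondria, changed by -0.34, -0.63 and -0.45, also called in every line. BPGM, which makes 2,3-bisphosphoglycerate, was lower by -0.81, -0.60 and -0.83. It is from a list of other glycolytic isozymes and branch enzymes, of which 4, 1 and 1 of 8 tested genes were lower and 0 higher. SLC2A14, a near-identical copy of SLC2A3 whose reads may be split between the pair, was higher by 0.87, 1.45 and 0.94. Of the list of other carriers, which holds MPC1 and SLC2A14, 3 were higher and 2 lower of 9 tested in Molm-14. In MV4-11 1 was higher and 1 lower of 10, and in SKNO-1 1 higher and 3 lower of 10. Of all genes, 21.5%, 5.85% and 10.8% were higher in the 3 lines.

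Among HIF regulators, 2 of 10 tested genes were higher and 2 lower in Molm-14, and 1 was lower in each of the other lines, beside 21.5% higher and 25.2% lower of all genes in Molm-14 and 8.03% and 16.2% lower in MV4-11 and SKNO-1. ELOC, part of the VHL ligase that removes HIF1A, was lower in all 3 lines by -0.46, -0.37 and -0.44. EPAS1, which encodes HIF-2 alpha, went from a mean of 7.37 to 27.5 CPM in Molm-14, where it was called (1.74 on the log2 scale, adjusted p = 0.0023). Its means went from 13.2 to 19.7 in MV4-11 (0.62, adjusted p = 0.37), while SKNO-1 had 5.03 with DMSO and 10.6 treated (1.08, adjusted p = 0.058). EPAS1 was named after its values were seen. Among other HIF targets, 6 were higher and 6 lower of 16 tested in Molm-14, 4 and 3 of 19 in MV4-11, and 3 each way of 19 in SKNO-1, beside all-gene shares of 21.5% and 25.2%, 5.85% and 8.03%, and 10.8% and 16.2%. BHLHE40, a transcriptional repressor, was higher in all 3 lines by 0.48, 0.51 and 0.40, and the membrane protein gene TMEM45A by 1.66, 1.15 and 0.51. WSB1 was lower in all 3 lines by -0.36, -0.30 and -0.20. VEGFA, the angiogenic factor, was at 0.45, 0.28 and 0.50 and rose in Molm-14 and SKNO-1 (adjusted p = 0.00091, 0.058 and 0.00073). DDIT4 was called in no line in the fit of groups only, at -0.50, 0.19 and -0.04. With the covariate, DDIT4 was called lower in MV4-11, VEGFA was also called higher there, and EPAS1 was also called higher in SKNO-1.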

How the data were processed

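RNA from 18 cultures (3 per group) was measured by RNA-seq of polyadenylated RNA. The submitters' processing notes name STAR, FastQC, limma and GRCh38, with no version. The counter, annotation, strand setting and filters are not given in the sources used here, so reads of overlapping antisense genes may be shared. The deposited table holds log2 values made by the authors: from the values, each is log2 of reads plus 0.5 per 1000000 reads of an effective library (total times a scaling factor of 0.890 to 1.11). Inverting this gave whole reads, within 0.01 read, for 100% of values under 50 reads, and CPM was computed from them. Since the deposited values are logarithms, no pseudocount was added.

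Groups were compared with limma 3.58.1 in R 4.3.3 (lmFit, eBayes with trend, two-sided) in 1 fit over all samples with 1 coefficient per group, so that errors are standard errors of that fit. Genes with at least 1 CPM in 3 samples entered (16262), were tested in a line where they had this in 3 samples of the line, and were called at a Benjamini-Hochberg adjusted p under 0.05 over all genes tested. The steps were tested on simulated data. Symbols matched 40069 of 40184 IDs, and gene positions are from GENCODE 29. Mitochondrial share is the share of reads in 23 mitochondrial genes, and 10% was the limit.

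The members and lists were chosen with earlier results of these data known. Values in every sample are given for genes called in opposite directions in 2 lines, the 3 largest called changes in each line, genes whose response differed between lines by at least 1 on the log2 scale, and HIF1A, SLC2A1, HK2, LDHA and PDK1. Other genes with values per library were chosen after their values were seen. These are PGK1, given in every line, and SLC2A3, SLC16A3, PFKL, GAPDH, BNIP3, BNIP3L, HILPDA and NDRG1, given in 1 or 2 lines. Reads are not independent molecules, as no molecular identifiers were used. Python 3.11.15 with matplotlib 3.10.9 drew the figures.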

Additional observations from a re-analysis of the deposited data

Results flagged for a closer look

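The response to RMC-4550 was compared between lines by a test of the difference itself (limma interaction contrasts, adjusted over all genes tested). SKNO-1 differed from the mean of Molm-14 and MV4-11 for 3 genes, each lower in SKNO-1, beside 3.80% of 12792 genes. PFKM differed by -1.10 ± 0.21 (adjusted p = 0.0062), with a rise in Molm-14 and a fall in SKNO-1, and HILPDA by -0.58 ± 0.075 (adjusted p = 0.00029). ENO2 differed by -0.49 ± 0.13 (adjusted p = 0.043), and leaving out single libraries ended this call in 11 of 18 cases.

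Molm-14 differed from MV4-11 for 7 genes, which is 20% of them beside 19.5% of all 13458 genes, so the share is near that of all genes. The monocarboxylate carrier SLC16A1 differed by -1.14 ± 0.23 (adjusted p = 0.0042), HK1 by -1.12 ± 0.37 (adjusted p = 0.044), ALDOC by -1.09 ± 0.25 (adjusted p = 0.0082) and BNIP3 by -0.71 ± 0.095 (adjusted p = 0.00023), each lower with RMC-4550 in Molm-14. ENO2 differed by 0.59 ± 0.15 (adjusted p = 0.013), ADM by 0.73 ± 0.23 (adjusted p = 0.036) and HK3 by 0.84 ± 0.26 (adjusted p = 0.033). Of the 4 libraries with over 10% mitochondrial reads, 1 is in Molm-14 and 3 are in MV4-11. With the share as a covariate, SLC16A1 was at -0.74, ALDOC at -0.61, BNIP3 at -0.61, ENO2 at 0.37 and ADM at 0.32, all still called, while HK1 was at -0.44 (adjusted p = 0.066) and HK3 at 0.50 (adjusted p = 0.12). Of SLC16A1, ALDOC, BNIP3 and ENO2, leaving out any 1 library ended no call in this contrast. For HK1 it ended the call in 8 of 12 cases, for ADM in 8 and for HK3 in 6.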

How the results depend on the processing

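Each count of called genes was recomputed under the other settings. Adding 1 CPM before the logarithm, median-ratio scaling and voom weights left every count of called genes within 1.5 times. With the mitochondrial share as a covariate, the counts went from 14 to 22 (Molm-14), 4 to 15 (MV4-11) and 7 to 19 (SKNO-1), and without the 4 libraries over 10% to 23, 10 and 23. A separate fit per line gave 0 in MV4-11 and 23 in SKNO-1, and in Molm-14 it gave 10, without TPI1, PGAM1, ENO1 and SLC16A3. With no filter on low values MV4-11 had 1. Genes whose response differed between SKNO-1 and the FLT3-ITD lines went from 3 to 10 with the covariate and 9 without the 4 libraries. Those that differed between Molm-14 and MV4-11 went from 7 to 4 with no filter and 11 without the 4 libraries. Genes that differed with DMSO between SKNO-1 and Molm-14 went from 19 to 29 with the covariate. SKNO-1 holds none of the 4 libraries. Its log2 changes were the same with and without them (-0.73 to 0.17 over the 35 genes), while the shared estimate of spread differed. The cause of the other shifts was not tested, and the fit without the 4 libraries holds fewer samples.

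Leaving out single libraries gave 9 to 15 genes in Molm-14 (9 without replicate 2 with RMC-4550) and 1 to 9 in MV4-11. There it was 1 without replicate 1 or 3 with DMSO or replicate 2 with RMC-4550, 2 without replicate 3 with RMC-4550, and 9 without replicate 2 with DMSO. It gave 5 to 6 in SKNO-1, 4 to 20 for the difference between Molm-14 and MV4-11 (20 without MV4-11 DMSO replicate 2), and 12 to 29 for SKNO-1 against MV4-11 with DMSO (29 without the same library, 17 with all).

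Same-numbered libraries did not deviate together in Molm-14 (correlations of -0.05, -0.04 and 0.003) or SKNO-1 (0.13, 0.01 and 0.04). In MV4-11 the correlations were 0.39, 0.59 and -0.40, while those of differently numbered libraries ran from -0.72 to 0.64. The numbers were not taken as pairs in any line. For MV4-11 the correlations cannot show whether they are pairs, since its libraries of high mitochondrial share stood apart. With the replicate number as a block, 15, 2 and 9 genes were called in the lines in the same order, and 11 differed between Molm-14 and MV4-11 in response. The block ended the MV4-11 calls of GPI and BNIP3L (limma, adjusted p = 0.067 for each). Among the calls it added were HK2 in Molm-14 (adjusted p = 0.021) and SLC2A3 in SKNO-1 (adjusted p = 0.039). The block and the separate fits give no comparison between DMSO groups.

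Some directions turned, for genes that were not called in the groups-only fit of that line. In Molm-14 with the covariate, ENO2 was at -0.053, SLC2A1 at 0.29, SLC2A3 at 0.16 and HIF1A at -0.071. Without the 4 libraries they were at -0.023, 0.27, 0.15 and -0.25, and GAPDH at 0.033. In MV4-11 with the covariate, HK1 was at -0.21, TPI1 at -0.19, GAPDH at -0.0995, PGAM1 at -0.29, SLC2A1 at -0.025, SLC2A3 at -0.27 and HIF1A at 0.12. Without the 4 libraries, HK1 was at -0.13, TPI1 at -0.19, GAPDH at -0.11, PGAM1 at -0.32, SLC2A1 at -0.017, SLC2A3 at -0.29 and BNIP3 at -0.0069. Median-ratio scaling put HK2 at 0.039 and HIF1A at 0.015 in MV4-11. Leaving out single libraries also turned signs. In Molm-14 the ranges were -0.43 to 0.033 for GAPDH, -0.023 to 0.11 for ENO2, -0.22 to 0.27 for SLC2A1, -0.40 to 0.15 for SLC2A3 and -0.25 to 0.26 for HIF1A. In MV4-11 they were -0.023 to 0.40 for HK1, -0.11 to 0.20 for HK2, -0.015 to 0.39 for PFKM, -0.023 to 0.24 for TPI1, -0.19 to 0.22 for PGK1 and -0.18 to 0.044 for LDHA. There they were also -0.071 to 0.41 for SLC2A3, -0.28 to 0.082 for SLC16A1, -0.30 to 0.098 for PDK1 and -0.12 to 0.078 for HIF1A. The cause was not tested.

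Precision was limited by 3 libraries per group and, for HK1 and HK3 in Molm-14 and PFKM in Molm-14 and MV4-11, by few reads. Whether replicates came from separate passages is not given in the sources used here.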

Other observations

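The pentose phosphate pathway, which branches from glucose 6-phosphate, had 8 tested genes. In Molm-14 and SKNO-1, 2 were higher and 2 lower with RMC-4550, and in MV4-11 1 was higher and 0 lower. Of all genes, 21.5% and 25.2% were called higher and lower in Molm-14, 5.85% and 8.03% in MV4-11, and 10.8% and 16.2% in SKNO-1. Of the targets of the glucose sensor MondoA, TXNIP was called in no line in the fit of groups only. The log2 changes of TXNIP were -0.21, 0.36 and 0.17 in the 3 lines (Molm-14, MV4-11, SKNO-1). ARRDC4, its relative, rose in SKNO-1 from a mean of 26.2 ± 0.49 to 38.6 ± 0.88 CPM (SD, n = 3), a log2 change of 0.56 (limma, adjusted p = 0.0040), and was at -0.15 in Molm-14 and 0.20 in MV4-11. TXNIP in the libraries fell between 597 and 1297 CPM. MLXIP, of the same list, was called higher in Molm-14 and MV4-11 in the fit of groups only. With the covariate, TXNIP and MLXIP were called higher in SKNO-1 and MLXIPL lower.

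MPO, a granule enzyme of myeloid cells, lay at 315 to 321 CPM in DMSO libraries of SKNO-1 and at 3.17 to 4.40 CPM in those of Molm-14. In Molm-14 it was lower with RMC-4550 (log2 change -1.36, adjusted p = 0.017).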
